A study of Drosophila melanogaster with 2 samples.

Results

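Cluster 0 is the largest of the 5 clusters into which the deposited annotation sorts the circulating hemocytes (blood cells) of Drosophila melanogaster larvae, and it holds 162 of the 381 annotated circulating cells. Its members were taken by that cluster number alone, which belongs to a clustering of the circulating cells and is not the numbering of the clusters that the study made from circulating and attached cells together. After cells with over 10% of reads on mitochondrial genes or under 200 genes were removed, 158 cells remained, and they were set against the 217 kept cells of the other clusters. The 4 cells removed from cluster 0 had 10.5% to 30.6% mitochondrial reads, and 79 further annotated cells of the series, which were picked from the surface of salivary glands, were not compared here.

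Hemocytes of 3 genotypes were sorted singly from the hemolymph into the wells of 1 plate and sequenced with Smart-seq2. In that method whole cDNA molecules are amplified by PCR, and copies of 1 molecule cannot be recognized afterwards. In p35;RasV12 larvae the BeadexMS1096-Gal4 driver, which acts in the salivary gland among other tissues, expresses the oncogenic Ras form RasV12 together with p35, an inhibitor of the effector caspases. In RasV12 larvae the same driver expresses RasV12 without p35, and w1118 is the control. A stock of the study carries the EaterDsRed reporter, which marks hemocytes that use the eater enhancer, the study describes its circulating cells as selected for expression of this plasmatocyte gene, and larvae were raised at 25°C. Each genotype was 1 pool of 10 larvae, the submitters' label of the circulating set names w1118 and the driver alone, and the genotype of each cell comes from the deposited annotation. Because no genotype was repeated, none of the differences below has a replicate check, and no test between genotypes could be run. The 3 genotypes also took different columns of the plate (17 to 24 for p35;RasV12, 9 to 16 for RasV12 and 1 to 8 for w1118), so genotype, pool and plate position cannot be told apart.

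Plasmatocytes are the macrophage-like majority of Drosophila blood cells. They engulf bacteria and dying cells through receptors such as Eater and NimC1, secrete clotting proteins such as Hemolectin and build much of the basement membrane of the larva, including collagen IV and Papilin. Crystal cells, which store prophenoloxidases for melanization, and lamellocytes, flat cells that wrap large intruders, are the other types. At the end of larval life the steroid ecdysone changes plasmatocyte behaviour through a relay of nuclear receptors and transcription factors, and this is accompanied by remodelling of the actin cytoskeleton.

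Most cells of cluster 0 came from the 2 genotypes that express RasV12. Of the kept circulating cells, 93 of 124 p35;RasV12 cells lay in cluster 0 (75.0%, exact binomial interval 66.4% to 82.3%), 57 of 126 RasV12 cells (45.2%, 36.4% to 54.3%) and 8 of 125 w1118 cells (6.40%, 2.80% to 12.2%). The remaining p35;RasV12 cells were almost all in cluster 2, with 29 cells (23.4%). RasV12 cells outside cluster 0 were spread over cluster 1 (32 cells, 25.4%), cluster 2 (20 cells) and cluster 4 (16 cells), whereas w1118 cells lay mainly in cluster 1 (52 cells, 41.6%) and cluster 3 (42 cells, 33.6%). RasV12 was therefore the only genotype with 20 or more cells in cluster 0, cluster 1 and cluster 2, and the RasV12 cells allow these clusters to be compared within 1 pool. The intervals cover the sampling of cells and not variation between larvae, and those on read counts given further on cover counting error only.

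**Figure D1:**
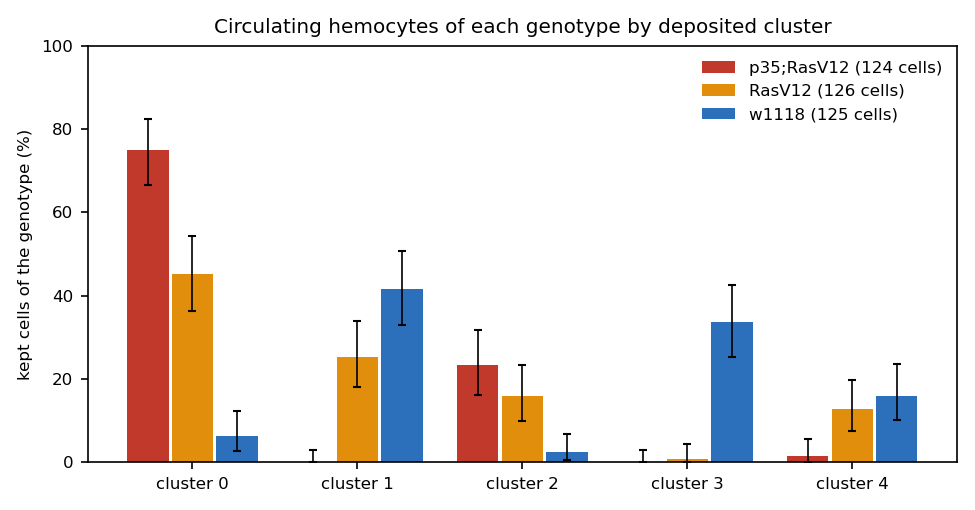
Share of the kept circulating cells of each genotype (percent, y axis) in each deposited cluster (x axis), with exact 95% binomial intervals as error bars. Cluster 0 holds 75.0% of p35;RasV12, 45.2% of RasV12 and 6.40% of w1118 cells, whereas clusters 1 and 3 hold most w1118 cells and no p35;RasV12 cell.

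Cells of cluster 0 had 6981 to 922750 reads on genes with a median of 607865, and the other circulating cells 2129 to 1149704 with a median of 610888. A median of 4430.5 genes had a read in a cluster 0 cell, against 4684 in the other cells. Cells with at least 300000 reads (155 in cluster 0 and 205 of the others) were also thinned at random to that number. Their medians were then 4286 and 4568 genes. The median mitochondrial share of reads was 1.71% in cluster 0 and 1.36% in the other cells. Levels are given as reads per 1000000 reads on genes (CPM), either of single cells or of the summed reads of a group, and they compare a gene between groups of cells, not one gene with another. A gene was counted as changed in a comparison where the summed levels differed at least 2-fold, provided that the group with more of it reached 50 CPM and that 25% or more of that group's cells had a read. Reads were counted without regard to strand. With the default counting settings, a read on exons of 2 genes is given to neither. Genes whose exons overlap can therefore be undercounted. Of the genes named, this also holds for Pxn, crq, spz, Dscam1, Hsp83, Mmp1, Lsd-1 and CG3625. Clusters were made by the authors from these same genes, so the differences between clusters describe what sets cluster 0 apart and are not a test of it. Counts of cells that lie beyond every cell of another group were made for named genes and list sums only. How many of all genes separate the clusters as fully was not counted. RNA of the other tissues that could enter a bleed was scarce in cluster 0: 10 salivary gland genes summed to 0.255 CPM in cluster 0 and 0.378 CPM in the other cells, 8 fat body genes to 68.4 and 49.8 CPM, and 5 muscle genes to 9.32 and 5.77 CPM.

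The genes that mark plasmatocytes were high in nearly all cells of cluster 0. Hml, which encodes the clotting protein Hemolectin (3L:13846054-13860001, plus strand, coordinates of build Dm6 throughout), had 8.32 CPM in the lowest, 9546 in the median and 15507 in the highest cell of cluster 0, against 3.98, 2524 and 14978 CPM in the other circulating cells. Medians by genotype were 9051 CPM in p35;RasV12, 9870.1 in RasV12 and 10624 in w1118 cells of cluster 0, so that the cells of the 3 pools in cluster 0 stood close to each other. The log2 ratio of the summed levels was 1.12 (counting interval 1.11 to 1.12) over the other cells, 3.15 over cluster 1, 1.80 over cluster 3, 0.77 over cluster 4 and -0.14 over cluster 2. Of the 158 cells, 149 lay above every cell of cluster 1, as did 55 of the 57 RasV12 cells when set against RasV12 cells of cluster 1 alone.

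Ppn, which encodes the basement membrane glycoprotein Papilin (3R:28520665-28540324, minus strand), separated the clusters further. Its levels in cluster 0 were 5.19, 5899 and 14144 CPM in the lowest, median and highest cell, against 0, 129 and 703 CPM in cluster 1. Summed over cells, Ppn was 34.3-fold higher in cluster 0 than in cluster 1, and 153 of 158 cells, with 57 of 57 in the RasV12 pool, lay above every cell of cluster 1. Cluster 2 was at the same height as cluster 0, with a median of 6482 CPM and a log2 ratio of -0.20.

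NimC1, a phagocytosis receptor and the antigen of the P1 antibody (2L:13973158-13976769, minus strand), differed less. The lowest, median and highest cell of cluster 0 had 3.34, 2249.5 and 7522 CPM, against 1.71, 1658 and 4925 CPM in the other cells, and the log2 ratio of 0.52 (0.51 to 0.53) did not reach 2-fold. The groups overlapped widely, with 38 of 158 cells above every cell of cluster 1. NimC1 thus marks cells of every cluster, while Hml and Ppn grade them.

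**Figure D2:**
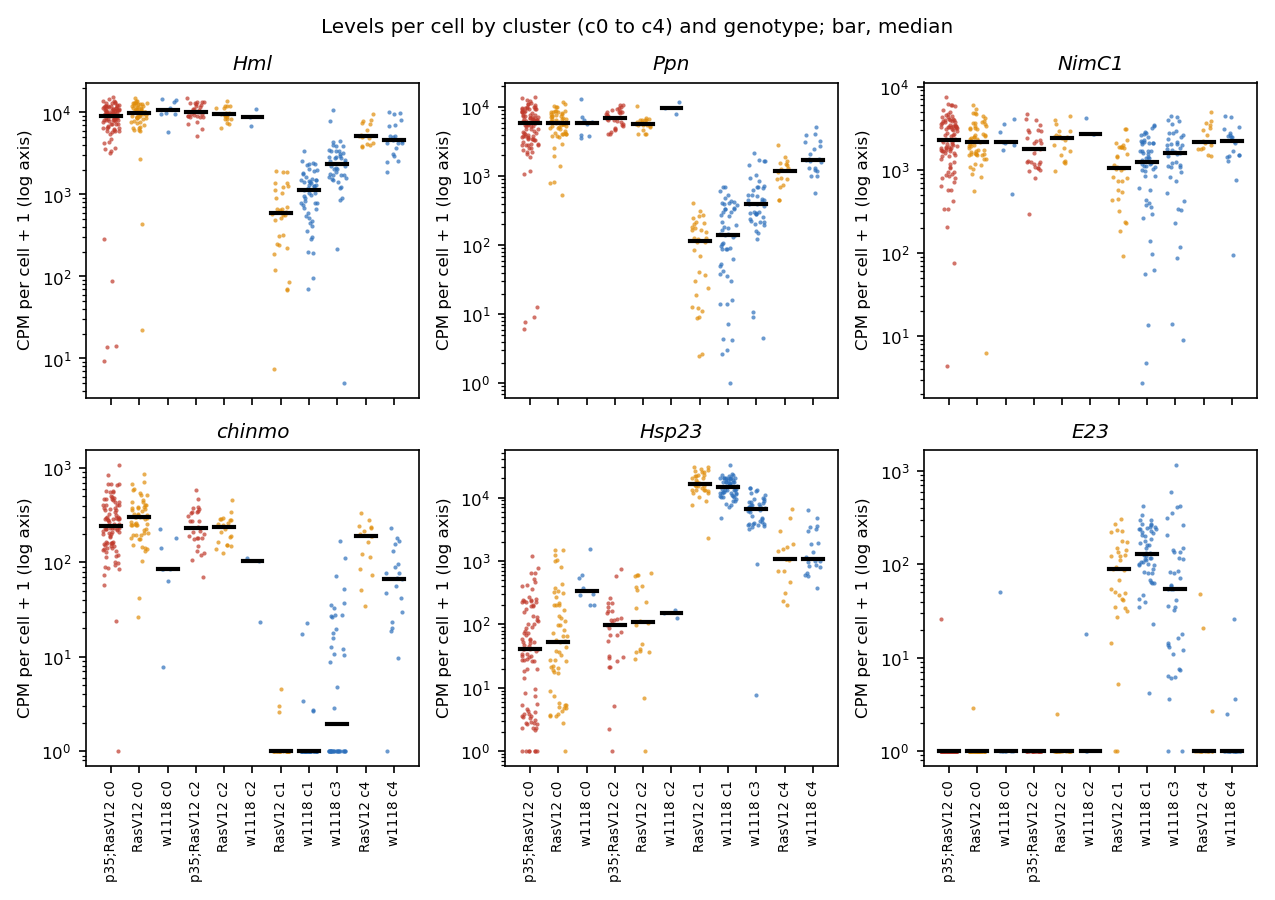
CPM plus 1 of Hml, Ppn, NimC1, chinmo, Hsp23 and E23 in every kept circulating cell (y axis, log scale), by cluster (c0 to c4) and genotype (x axis), for groups of at least 3 cells, with the median as a bar. Hml and Ppn were high in cluster 0 and cluster 2 of each genotype and low in the RasV12 and w1118 cells of cluster 1, Hsp23 ran the other way, and E23 had a read in 3 of the 158 cells of cluster 0.

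Of the 3423 genes compared between cluster 0 and the other circulating cells, 153 (4.47%) were at least 2-fold higher in cluster 0 and 184 (5.38%) at least 2-fold lower, with a median log2 ratio of 0.06 over all genes. Ratios were above 0 for 1891 of all 3423 genes (55.2%) and below 0 for 1532, the background for the counts by list below. With trimmed-mean (TMM) scaling of the summed counts, which lowers every log2 ratio of this comparison by 0.13 and every ratio over cluster 1 by 0.29, the counts were 107 higher and 236 lower. Of 206 named genes, 11 fell below 2-fold with this scaling. Within the RasV12 pool, 171 genes (4.89% of 3494) were higher and 244 (6.98%) lower in cluster 0 than in the other clusters. Of the 153 genes higher over all pools, 95 (62.1%, and 55.6% of the 171) were also higher within RasV12 cells, and of the 184 lower genes 158 were (85.9%, and 64.8% of the 244). Among p35;RasV12 and RasV12 cells only, 45 of 3496 genes were at least 2-fold higher and 163 lower. In that setting 25 of the 206 named genes fell below 2-fold, so part of the calls over the other cells depends on the w1118 cells among them.

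Most of the 11 plasmatocyte marker genes stood higher in cluster 0, with 9 of 11 log2 ratios above 0, 3 of them at least 2-fold, and a median of 0.76. Their summed level was 44617 CPM in cluster 0 and 24143 CPM in the other cells, and 152 of 158 cells had a larger sum than every cell of cluster 1. Sr-CI, a scavenger receptor for bacteria, had 333, 5409 and 10242 CPM in the lowest, median and highest cell of cluster 0 and a median of 142 CPM in cluster 1, and 157 of 158 cells lay above every cell of cluster 1. Over the other cells its log2 ratio was 1.32. Pxn, a peroxidasin of the matrix, and the 2 collagen IV genes Col4a1 and vkg had log2 ratios of 0.75, 0.77 and 0.76, under 2-fold. The GATA factor srp went the other way, with a log2 ratio of -0.87. Its median was 471 CPM in cluster 0 against 903 CPM in the other cells. The exons of srp overlap those of a noncoding RNA gene, so that srp can be undercounted. The apoptotic cell receptor crq was level with the other cells, at -0.09.

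Phagocytosis and scavenger receptors as a list of 15 measured genes had 11 ratios above 0 and 4 below, with 6 genes at least 2-fold higher and 2 at least 2-fold lower. NimB5, a secreted relative of the phagocytosis receptors, and the scavenger receptor Sr-CIV had log2 ratios of 1.50 and 1.70. Itgbn, the beta-nu integrin subunit that takes part in the uptake of apoptotic cells, had a log2 ratio of 2.89, with a read in 29.7% of cluster 0 cells against 16.1% of the others. Its level leaned on 5 p35;RasV12 cells with over 1000 CPM of the lamellocyte gene atilla, described further on, without which the ratio was 1.84 and the gene no longer passed the filter. The exons of these 3 genes overlap those of a neighbour. The Nimrod family also held a contrast in the other direction. NimC2, another receptor of the family, had 2.11 CPM over cluster 0 and 250.1 CPM over the other cells, with a read in 8.23% of cells against 60.8% and a log2 ratio of -6.89, and it was -8.47 between cluster 0 and cluster 1 within RasV12 cells. Dscam1, an immunoglobulin-family receptor, stood at -2.22.

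Several enzyme genes were among the 15 genes with the largest ratios over the other cells that kept their direction within RasV12 cells, a condition that leaves out alphaTub85E and mthl4. Men, which encodes the cytosolic malic enzyme that makes NADPH, had 0, 78.8 and 4437 CPM in the lowest, median and highest cell of cluster 0, with a read in 63.9% of cells against 21.2% of the others, and a log2 ratio of 3.62 (3.57 to 3.68). The ratio was 3.00 within RasV12 cells. Men varied with the pool, since none of the 8 w1118 cells of cluster 0 had a read of it, which allows a share of up to 36.9% of such cells (exact binomial interval). AOX1, an aldehyde oxidase, had a read in 71.5% of cluster 0 cells (68.4% of cells thinned to 300000 reads) against 30.9% of the others, and 144 CPM against 27.6 CPM. Its log2 ratio was 2.38, and that of the related AOX3 was 2.32. Acsf2, an acyl-CoA synthetase family member, Ect3, a beta-galactosidase, and Thor, the translation repressor 4E-BP, had ratios of 2.34, 2.67 and 2.34, all of them positive within RasV12 cells too, at 2.11, 2.44 and 1.63.

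Of 13 measured cytochrome P450 genes, which oxidize lipids and foreign compounds, 6 were at least 2-fold higher in cluster 0 and 2 at least 2-fold lower. Cyp6a17 had a read in 86.7% of cluster 0 cells, 96.2% of cluster 2 cells and 4.76% of cluster 1 cells, with a log2 ratio of 2.22 over the other cells and 0 reads in the 32 RasV12 cells of cluster 1. The w1118 cells of cluster 0 stood apart for this gene, at 0.966 CPM, against 137 CPM in p35;RasV12 and 125 CPM in RasV12 cells. Cyp28a5 had a ratio of 2.05, whereas Cyp12c1 and Cyp4e2 were at -2.22 and -1.22. The 4 measured UDP-glycosyltransferases, which attach sugars to small molecules, all had ratios above 0, and Ugt35A1 among them had a read in 74.1% of cells against 26.3% and a log2 ratio of 2.17. Of 9 glutathione S-transferases, none was at least 2-fold higher, and GstO3 was lower at -1.95.

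Secreted enzymes and growth factors formed another group. All 4 measured Idgf genes, which encode chitinase-like secreted proteins, were at least 2-fold higher, and their summed level was 498, 11888 and 26930.2 CPM in the lowest, median and highest cell of cluster 0, against medians of 10163 in cluster 2, 6977 in cluster 4, 4245 in cluster 3 and 1788 CPM in cluster 1. Idgf6 had a median cell of 9119 CPM in cluster 0 and a log2 ratio of 1.11, which TMM scaling took under 2-fold. Idgf2 had the largest ratio, 1.89. Within RasV12 cells, Idgf1 and Idgf3 fell short of 2-fold, at 0.80 and 0.93. Of 7 measured neprilysin-like genes, a family of metallopeptidase relatives, 5 were at least 2-fold higher and 1, Nepl14, at least 2-fold lower (-4.45). Nepl20 had 0, 484 and 2854 CPM in the lowest, median and highest cell of cluster 0, its ratio was 1.99, and 147 of 158 cells lay above every cell of cluster 1. Nepl9 had a ratio of 2.33 and a read in 89.9% of cells against 37.3%.

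The roles of CG17839 and CG8620, 2 further genes among the 15 with the largest ratios, are not given by the annotation used here. CG17839 had 159 CPM in cluster 0 against 33.4 CPM in the other cells (log2 2.25), and 133 of 158 cells lay above every cell of cluster 1. CG8620 had a log2 ratio of 2.24. CG15347 and PPO2 also reached the 15, at 5.66 and 2.79, but leaned on few cells: CG15347 was at 1.31 without the cells of over 1000 CPM of atilla, 1 cell held 29.2% of all CG15347 reads of cluster 0 and another 57.0% of all PPO2 reads.

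Among transcription factors, chinmo, a BTB zinc finger factor chosen after its values were seen, had a read in 99.4% of cluster 0 cells, 100% of cluster 2 cells and 9.52% of cluster 1 cells. Its levels in cluster 0 were 0, 251 and 1081 CPM in the lowest, median and highest cell, with a log2 ratio of 1.86 over the other cells and 1.53 within RasV12 cells. Stat92E, the transcription factor of the JAK/STAT pathway, pnt, an ETS factor downstream of Ras, and spz, the ligand of Toll, were at 1.04, 1.06 and 1.10. As lists, the 8 measured Ras and MAPK genes had 3 ratios above 0 and 5 below, and the 15 measured Toll and Imd genes 9 above and 6 below (5 and 10 with TMM scaling). No antimicrobial peptide gene passed the filter, and the list summed to 13.9 CPM in cluster 0 and 0.808 CPM in the other cells.

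Genes of the ribosome stood slightly and uniformly higher. All 83 measured cytosolic ribosomal protein genes had ratios above 0, none reached 2-fold, and the median was 0.37 (0.25 with TMM scaling, with the sign of all 83 kept). Their summed level was 39198, 154045 and 285632 CPM in the lowest, median and highest cell of cluster 0, against a median of 144964 in cluster 2 and 97791 in cluster 1. Nuclear genes of oxidative phosphorylation showed no such shift, since 49 of 57 ratios were above 0 as scaled by totals but 29 of 57 with TMM scaling.

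Genes that answer to ecdysone were among those lower in cluster 0. Of 12 measured genes in a list of ecdysone receptors and response genes, a list added after the data were seen, 11 had ratios below 0, 8 were at least 2-fold lower, and the median was -2.81. Their sum was 304, 1103 and 3473 CPM in the lowest, median and highest cell of cluster 0, against 8149.5, 22181 and 42707 CPM in cluster 1. The ranges of cluster 0 and cluster 1 did not meet. Medians of the other clusters were 1114 CPM in cluster 2, 3157 in cluster 4 and 12492 in cluster 3. Much of the sum in cluster 1 came from the small heat shock genes of the list, described further on. The gap between the sums is therefore not a result apart from those genes.

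E23, an ecdysone-inducible ABC transporter, had a read in 3 of 158 cells of cluster 0 (1.90%) against 60.4% of the other cells. In the RasV12 pool it had a read in 30 of 32 cells of cluster 1, with a median of 87.2 CPM, and its log2 ratio over the other cells was -7.45 (-7.92 to -7.02). Hr4 and Eip78C, nuclear receptors of the ecdysone relay, stood at -5.61 and -4.73, and br and Eip75B, further early genes, at -1.94 and -1.26. Eip78C, br and Eip75B were chosen after their values were seen, and the exons of Hr4 overlap those of PIG-K. The receptor gene EcR itself was not reduced, with a ratio of 0.36 and 1.91 between cluster 0 and cluster 1 of RasV12 cells.

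The small heat shock genes Hsp23, Hsp26 and Hsp27, which respond to ecdysone as well as to heat, are members of that list and of the heat shock list, so the 2 lists are not separate groups. Hsp23 had 0, 45.8 and 1544 CPM in the lowest, median and highest cell of cluster 0, against 2265, 15547 and 32919 CPM in cluster 1, and 158 of 158 cells lay below every cell of cluster 1. Its ratio was -5.59 over the other cells and -6.51 between cluster 0 and cluster 1 within RasV12 cells. Within cluster 0, the 8 w1118 cells carried more of it than the rest, with 199, 339 and 1544 CPM in the lowest, median and highest cell, against medians of 39.5 CPM in p35;RasV12 and 51.6 CPM in RasV12 cells. Hsp26 and Hsp27 had ratios of -6.82 and -3.67, the exons of Hsp27 overlapping a noncoding gene. Hsp83, the cytosolic Hsp90, was at -1.95, and Hsc70-4, the constitutive Hsp70 relative, was at -0.18. Of the 5 measured genes of the heat shock list, 4 were thus at least 2-fold lower, with a median of -3.67.

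The actin cytoskeleton was the other large group of reduced genes. All 23 measured members had ratios below 0, 6 of them at least 2-fold, with a median of -0.72, and with TMM scaling all 24 measured were below 0. The summed level was 9748, 25332 and 99190.3 CPM in the lowest, median and highest cell of cluster 0, against 77197, 98382 and 126452 CPM in cluster 1. Nearly all cells were separated, 154 of 158 lying below every cell of cluster 1, and 57 of 57 within the RasV12 pool. Cluster 2 had the level of cluster 0 (26674 CPM), and clusters 4 (48687 CPM) and 3 (73296 CPM) stood between.

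sn, which encodes the actin-bundling protein fascin of filopodia, had 0, 79.4 and 813 CPM in the lowest, median and highest cell of cluster 0, against 1481, 2551 and 3985 CPM in RasV12 cells of cluster 1, and 158 of 158 cells lay below every cell of cluster 1. Its ratio over the other cells was -3.52, and its exons overlap those of sws. cib, an actin monomer-binding protein, was at -2.20 with 156 of 158 cells below every cell of cluster 1. Act5C, the main cytoplasmic actin, had 206, 6315 and 52444 CPM in cluster 0 against 30448, 43704 and 63058 CPM in cluster 1, with a ratio of -1.78 over the other cells.

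The 10 genes with the smallest ratios over the other cells included several that were nearly absent from cluster 0. Dtg, a target gene of the growth factor Dpp, had 0, 0 and 350.5 CPM in the lowest, median and highest cell of cluster 0, against 1084, 3424 and 6252 CPM in RasV12 cells of cluster 1, with a ratio of -7.92 over the other cells. CG34296, whose role the annotation does not give, was at -11.60. Gs2, a glutamine synthetase, CREG, a secreted glycoprotein, and Reck, an inhibitor of matrix metalloproteases, had 0.123, 0.133 and 0.225 CPM in cluster 0 against 131, 56.9 and 71.2 CPM in the other cells. NLaz, a lipocalin, and Glut1, a glucose transporter, had ratios of -7.27 and -7.00, and Glut1 had a read in 3.80% of cells against 49.3%. The exons of Reck overlap those of Prosbeta2 and the exons of NimC2 those of rk. Among other lists, Cat, the catalase gene, was at -1.72, and Mmp1, a matrix metalloprotease, at -1.13 and at -3.32 between cluster 0 and cluster 1 within RasV12 cells.

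Against cluster 1 the same directions were steeper. There, 609 of 3485 genes (17.5%) were at least 2-fold higher in cluster 0 and 353 (10.1%) at least 2-fold lower, and 420 and 504 with TMM scaling. Within RasV12 cells, where pool and plate columns were shared, 709 of 3550 genes (20%) were higher and 413 (11.6%) lower, and 509 of the higher and 320 of the lower genes were called in both comparisons. Cluster 3, mostly w1118 cells, gave 377 higher (10.9%) and 242 lower genes (7%) of 3458, and cluster 4 gave 150 (4.4%) and 78 (2.29%) of 3409. Among clusters 1, 3 and 4, Hsp23, Act5C and Ppn differed least from cluster 4 and most from cluster 1. Their log2 ratios of cluster 0 over cluster 1, cluster 3 and cluster 4 were -6.61, -5.42 and -3.27 for Hsp23, -2.44, -1.87 and -0.97 for Act5C, and 5.10, 3.39 and 1.64 for Ppn.

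The 8 w1118 cells of cluster 0, which were placed there from these same genes, carried much of the same pattern. They were set against the 94 w1118 cells of clusters 1 and 3. The 20 w1118 cells of cluster 4 and the 3 of cluster 2 were left out. Of 3534 genes, 569 (16.1%) were at least 2-fold higher and 391 (11.1%) at least 2-fold lower in the 8 cells. Their log2 ratios were 2.53 for Hml, 4.08 for Ppn, 3.52 for chinmo, -4.49 for Hsp23, -3.33 for sn and -2.08 for Act5C. All 8 lay below every one of the 94 cells in the ecdysone sum, which holds the small heat shock genes. They lay above every one in the plasmatocyte sum, while 4 of 8 lay below in the actin sum and none in the heat shock sum.

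Cluster 2 held cells of the same pools (29 p35;RasV12, 20 RasV12 and 3 w1118 cells) and a like level of plasmatocyte markers, and the lists of cell division stood lower in cluster 0. Of 3635 genes, 28 (0.77%) were at least 2-fold higher in cluster 0 than in cluster 2 and 203 (5.58%) at least 2-fold lower. All 9 measured genes of the dividing-cell list had ratios below 0, 7 of them at least 2-fold, with a median of -1.34. Of 13 measured DNA replication genes, 12 were below 0 and 8 at least 2-fold, with a median of -1.30. The median over all genes was -0.05, with 1634 of the 3635 ratios (45.0%) above 0 and 2001 below.

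scra, which encodes the cytokinesis protein anillin, had 0, 52.4 and 683 CPM in the lowest, median and highest cell of cluster 0, against 25.8, 626 and 1148 CPM in cluster 2, a log2 ratio of -2.91. polo, a mitotic kinase, had 0, 57.0 and 698 CPM against 75.2, 693 and 1500.0 CPM, and a read in 58.9% of cells against 100%. feo, a microtubule bundler of the spindle midzone, Klp67A, a mitotic kinesin, and aurB, the Aurora B kinase, had ratios of -2.94, -2.90 and -2.56, and msd1, a subunit of the augmin complex, had a read in 41.1% of cells against 98.1%. These genes act in mitosis and cytokinesis. CycB, the mitotic cyclin, was at -2.51 and PCNA, the replication clamp, at -1.34. Cdk1, the cyclin-dependent kinase of mitosis, had 83.6 CPM in cluster 0 against 168 CPM in cluster 2. Also among the 8 smallest ratios were Hsp68 (-3.94), a heat-inducible Hsp70 gene, squ (-3.40), TM4SF (-3.14) and CG12702 (-2.95). The exons of squ overlap those of the checkpoint kinase gene grp on the same strand. The exons of TM4SF, CG12702, Hsp68, msd1 and Klp67A overlap those of a neighbour, so these genes and squ can be undercounted.

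The same difference was seen in each tumor pool. Within p35;RasV12 cells 71 genes (1.95%) were higher and 229 (6.3%) lower in cluster 0 than in cluster 2, and within RasV12 cells 42 (1.13%) and 274 (7.36%). Of the 203 lower genes, 172 were also lower within p35;RasV12 and 165 within RasV12 cells, whereas of the 28 higher genes 25 were also higher within p35;RasV12 and 9 within RasV12 cells. scra had ratios of -2.95 and -2.85, and polo of -3.06 and -2.49, in p35;RasV12 and RasV12 cells. Men was higher in both, at 2.21 and 1.53, and over both pools at 1.90. Gal, a beta-galactosidase gene whose exons overlap those of Tsp26A, was at 1.76, and at 1.20 within RasV12 cells. Other genes higher than in cluster 2 leaned on the p35;RasV12 cells of over 1000 CPM of atilla. Itgbn was at 1.80 with them and 0.75 without, CG15347 at 4.64 and 0.30, and alphaTub85E, an alpha-tubulin, at 2.87 and 0.47. Tsp42Ed, a tetraspanin, was at 1.93 with them and 1.21 without, and at 0.56 within RasV12 cells. The gene FBgn0003888 was at 4.06 in all, 1.37 without those cells, 5.70 in p35;RasV12 and 0.36 in RasV12 cells, and alphaTub85E was at -1.17 within RasV12 cells, so that its direction rests on the p35;RasV12 pool.

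The cells of cluster 0 were not all alike in these genes. The summed dividing-cell level was 5.19, 886 and 2645 CPM in the lowest, median and highest cell of cluster 0, 1242, 2735 and 5948 CPM in cluster 2 and 2.03, 191 and 618 CPM in cluster 1. Cluster 0 thus lay between, with 44 of 158 cells (27.8%, 21.0% to 35.5%) at or over the lowest cell of cluster 2 and none over its median, and with 113 of 158 above every cell of cluster 1. By pool the share was 26 of 93 p35;RasV12 cells (28.0%, 19.1% to 38.2%), 16 of 57 RasV12 cells (28.1%, 16.97% to 41.5%) and 2 of 8 w1118 cells (25%, 3.19% to 65.1%), and 0 of 84 cells of cluster 1 reached that level. Over the 158 cells the sum had a Spearman correlation of 0.03 with the number of reads and -0.08 with the number of genes.

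**Figure D3:**
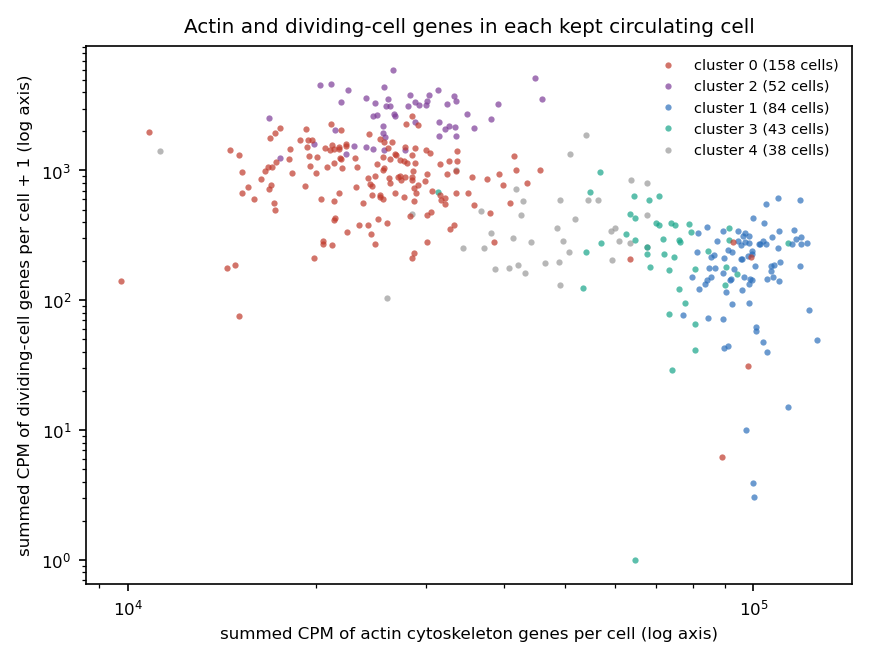
Summed CPM of the dividing-cell genes plus 1 (y axis, log scale) against summed CPM of the actin cytoskeleton genes (x axis, log scale), each point 1 kept circulating cell coloured by cluster. Clusters 0 and 2 share the low actin side and differ in height, with medians of 886 and 2735 CPM, while clusters 1 and 3 lie at high actin and low dividing-cell levels.

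Other groups differed little between the 2 clusters. The 11 plasmatocyte markers had a median log2 ratio of 0.08 over cluster 2, the 83 ribosomal protein genes one of 0.17 with 82 above 0, and the 23 actin genes had 17 above 0 and 6 below. Integrin and adhesion genes had 9 of 10 ratios above 0 with a median of 0.55, but 7 of 9 with a median of 0.13 without the cells of over 1000 CPM of atilla, and 4 of 9 with a median of -0.01 within RasV12 cells. Of 9 measured lipid genes, 7 were below 0 and 2 at least 2-fold lower, among them the lipid droplet protein gene Lsd-1 at -2.12 and the fatty acid transporter gene Fatp1 at -1.30.

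**Figure D4:**
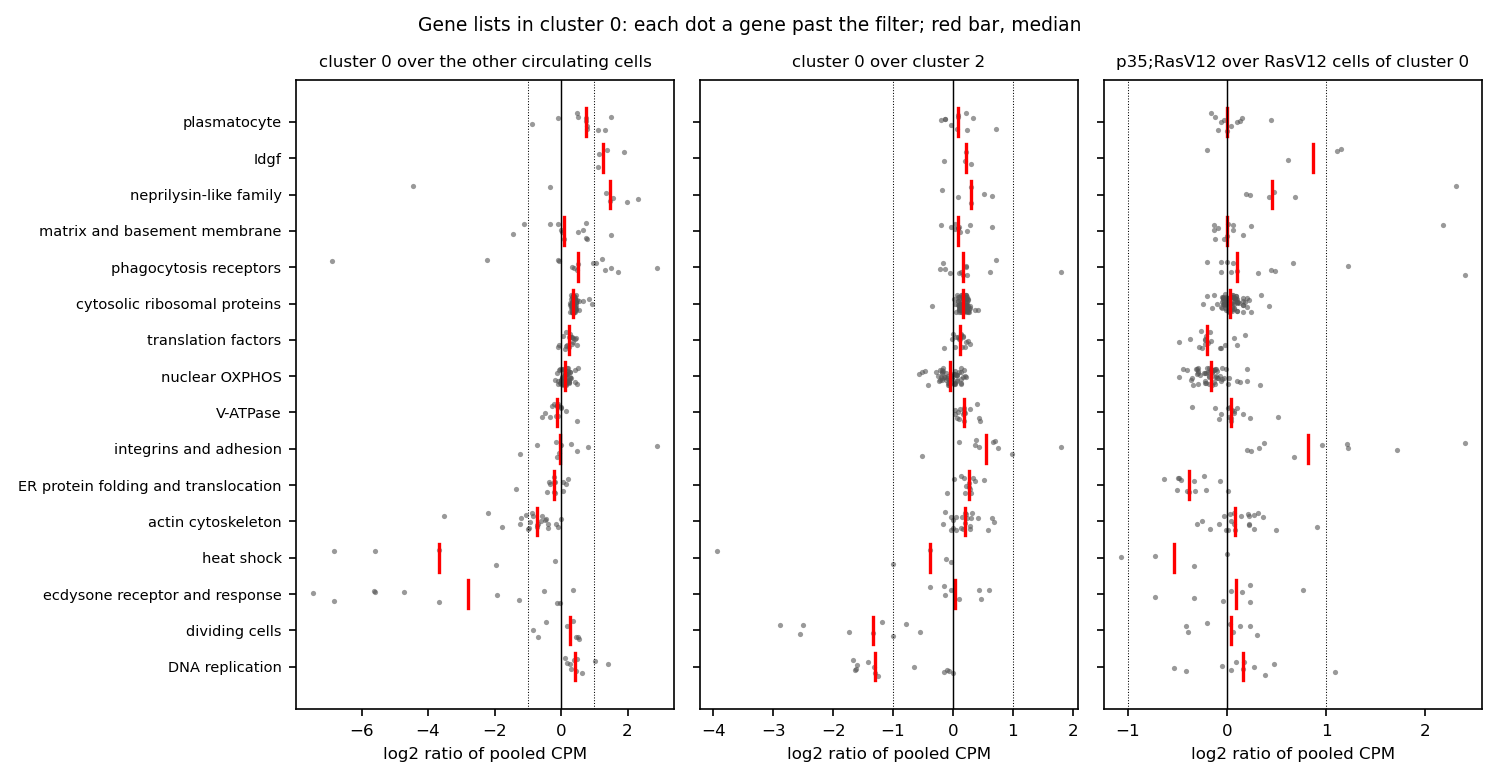
Log2 ratio of the summed CPM (x axis) of every gene past the filter in 16 lists (rows), for cluster 0 over the other circulating cells (left), cluster 0 over cluster 2 (middle) and p35;RasV12 over RasV12 cells of cluster 0 (right), with the median as a red bar and 2-fold as dotted lines. Actin, heat shock and ecdysone genes lie left of 0 in the left panel, and dividing-cell and DNA replication genes, with medians of -1.34 and -1.30, in the middle panel.

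Within cluster 0, p35;RasV12 and RasV12 cells differed in few genes. Of 3420 genes, 68 (1.99%) were at least 2-fold higher in p35;RasV12 and 15 (0.439%) at least 2-fold lower, with a median log2 ratio of -0.04, where each genotype is 1 pool. The marker genes were level, at -0.15 for Hml, -0.03 for Ppn and 0.10 for NimC1. In cluster 2 the same genotypes differed in 75 (1.99%) and 58 (1.54%) of 3764 genes, and 18 of the 68 higher and 7 of the 15 lower genes were called there too.

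ninaD, a scavenger receptor for carotenoids, had 0, 100.3 and 849.6 CPM in the lowest, median and highest p35;RasV12 cell of cluster 0, with a read in 68.8% of cells against 3.51% of RasV12 cells, and a log2 ratio of 11.21 (9.36 to 14.26). In cluster 2 it had a read in 93.1% of p35;RasV12 cells and in none of 20 RasV12 cells, and was at least 493-fold higher against a floor of 3 reads over the RasV12 cells. Of the 8 w1118 cells of cluster 0, 3 had a read. CG18088, whose exons overlap those of CG9541, had a read in 44 of 93 p35;RasV12 cells and 0 reads in the 57 RasV12 cells, and was at least 939-fold higher against the same floor. It had no read in w1118 cells of cluster 0, and in cluster 2 it was found in 15 of 29 p35;RasV12 and 1 of 20 RasV12 cells.

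hui and CG10126 had log2 ratios of 3.69 and 4.23 in cluster 0 and 0.93 and 1.39 in cluster 2. hui had a read in 89.2% of p35;RasV12 cells against 36.8% of RasV12 cells, with 167 against 12.9 CPM. Idgf1 and Idgf2 were at 1.15 and 1.11 in cluster 0 and at 1.03 and 0.86 in cluster 2. For Idgf1 the summed level of the 8 w1118 cells of cluster 0, at 485 CPM, stood with RasV12 (486 CPM) and not with p35;RasV12 (1075 CPM). All 6 measured neprilysin-like genes had ratios above 0 in both clusters, Nepl3, whose exons overlap those of His3.3A, with 2.31 in cluster 0 and 1.75 in cluster 2.

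In the other direction, CG33465 had 169.8 CPM in p35;RasV12, 681 CPM in RasV12 and 1074 CPM in w1118 cells of cluster 0, and in cluster 2 its log2 ratio was -2.80. CG33459 had medians of 40.2, 208 and 170.5 CPM in p35;RasV12, RasV12 and w1118 cells and a ratio of -1.68 (-1.84 in cluster 2). CG3625 and fbp, the gene of the gluconeogenic enzyme fructose-1,6-bisphosphatase, were at -2.23 and -1.41, and at -2.28 and -1.72 in cluster 2. These 4 genes were thus lower in the p35;RasV12 pool in both clusters. Rdh1, a retinol dehydrogenase relative whose exons overlap those of DCTN4-p62, and ida, a subunit of the anaphase-promoting complex, were at -1.73 and -1.56 in cluster 0 and at -0.70 and -0.23 in cluster 2. Arc1 and PPO2, with -1.92 and -1.49, rested on single cells, since 1 RasV12 cell held 38.4% of the Arc1 reads and 1 held 91.9% of the PPO2 reads of that group.

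By list, 12 of 13 ER folding and translocation genes were below 0 in p35;RasV12 against RasV12 cells of cluster 0, with a median of -0.38, and 11 of 13 were in cluster 2. Of 57 nuclear genes of oxidative phosphorylation 50 were below 0 with a median of -0.16 in cluster 0, against 34 in cluster 2, and no member of either list was at least 2-fold changed. Over all genes, 1863 of 3420 were below 0 in cluster 0 and 1965 of 3764 in cluster 2. All 10 measured integrin and adhesion genes were above 0 and 4 at least 2-fold, and this rested on 5 cells: without the 5 p35;RasV12 cells of over 1000 CPM of atilla, 8 of 9 were above 0, none at least 2-fold, with a median of 0.21.

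**Figure D5:**
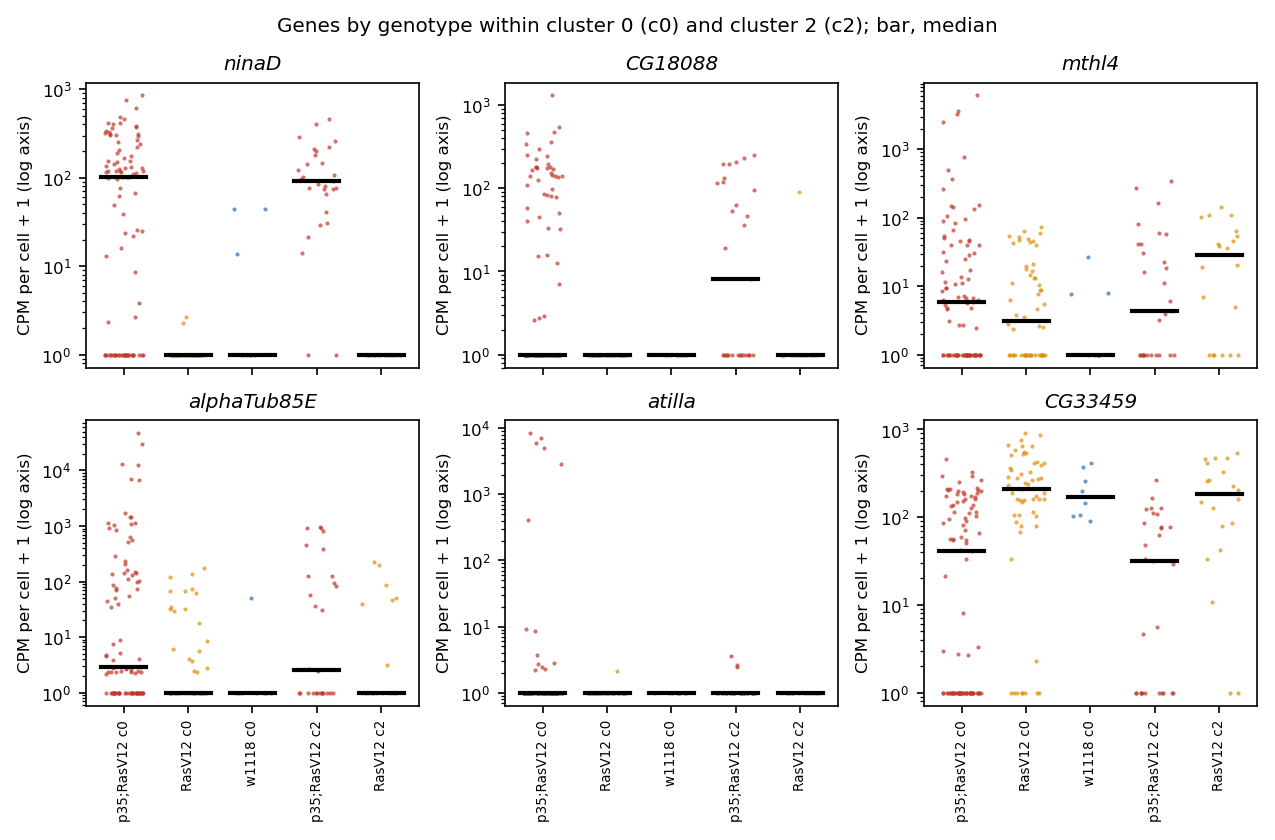
CPM plus 1 (y axis, log scale) of ninaD, CG18088, mthl4, alphaTub85E, atilla and CG33459 in each kept cell of cluster 0 (c0) and cluster 2 (c2) by genotype (x axis), with the median as a bar. ninaD and CG18088 have reads in many p35;RasV12 cells of both clusters and in few or no RasV12 cells, whereas mthl4, alphaTub85E and atilla are highest in a few p35;RasV12 cells of cluster 0. Without the cells of over 1000 CPM of atilla, alphaTub85E and mthl4 stayed at least 2-fold higher in p35;RasV12 than in RasV12 cells.

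Of those 5 cells, 4 were among the members that lacked the plasmatocyte markers. Of the 158 cells, 5 had under 1000 CPM of Hml and NimC1 together, against 7 in cluster 1 and 1 in cluster 3. In 4 of them, all p35;RasV12, the lamellocyte gene atilla, which encodes the L1 antigen, had 7239, 5091, 5901 and 8386 CPM, ItgaPS4, an integrin alpha subunit, 7115, 9169, 7662 and 5030 CPM, PPO3, the lamellocyte prophenoloxidase, 2322, 513, 1858 and 1302 CPM, and alphaTub85E 6770, 12745, 46461 and 30531 CPM, while Hml had 8.32, 13.0, 13.4 and 87.9 CPM. The fifth, a RasV12 cell, had 40896 CPM of PPO1 and 34129 CPM of PPO2, the crystal cell prophenoloxidases, and 21.1 CPM of Hml. Levels of eater were 0, 3.90, 1.67 and 3.20 CPM in the 4 p35;RasV12 cells and 44.9 CPM in the RasV12 cell. In all, 5 cells of cluster 0 had over 1000 CPM of PPO1 and PPO2 together, as had 3 cells of cluster 2 and 1 of cluster 3. atilla, ItgaPS4, PPO1 and PPO3 were chosen after their values were seen. These cells were deposited in cluster 0 with the other members, no cell of another circulating cluster had over 1000 CPM of atilla, and the lamellocyte list summed to 1037 CPM in cluster 0 against 485 CPM in the other cells, with medians per cell of 317 and 426 CPM. The crystal cell list summed to 541 and 70.9 CPM, with a median cell of 1.40 CPM in cluster 0.

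Leaving out the 5 cells of over 1000 CPM of atilla changed what p35;RasV12 cells of cluster 0 appeared to carry. The number of genes at least 2-fold higher than in RasV12 cells was then 44 in place of 68. alphaTub85E had a log2 ratio of 6.66 with them and 4.24 without, mthl4, a Methuselah-like receptor, 4.11 and 1.45, FBgn0003888 3.58 and 0.14, and CG15347 4.73 and -0.42. ninaD, hui and CG10126 stayed at least 2-fold higher, at 11.30, 3.24 and 3.06, and so did CG18088, for which a log2 ratio of 9.92 is the lower bound against the floor of 3 reads. alphaTub85E and mthl4 also stood out over the other circulating cells, at 4.30 and 3.08, but were at 1.89 and 0.64 without the atilla cells and at -0.26 and -0.67 within RasV12 cells.

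A noncoding RNA divided cluster 0 in another way. roX1, an RNA of the dosage compensation complex of male flies whose exons overlap those of ec, had a read in 38 of 93 p35;RasV12 cells (40.9%), 33 of 57 RasV12 cells (57.9%) and 1 of 8 w1118 cells, and its partner roX2, chosen after its values were seen, in 20, 22 and 0 of the same cells. The summed roX1 levels were 455, 668 and 0.193 CPM. The labels do not give the sex of the larvae of a pool, so the sex make-up of the pools cannot be told apart from genotype in the differences between them.

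Across the 158 cells, the genes whose levels ran most closely with Hml were those of the basement membrane. Over 3422 genes with a median Spearman correlation of -0.01 and a 99th percentile of 0.28, the 5 highest were Ppn (0.64), Col4a1 (0.52), vkg (0.45), LanB1, a laminin subunit (0.44), and NimB4, a secreted Nimrod protein that binds apoptotic cells (0.43). Hml itself had correlations of 0.08 with the number of reads, -0.10 with the number of genes and 0.19 with the mitochondrial share. These describe cells that share a plate and, within each genotype, a pool.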

How the data were processed

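Single circulating hemocytes of p35;RasV12, RasV12 and w1118 larvae were sequenced by the authors as 56-base single-end reads. The authors mapped them to Dm6 (annotation r6.37) with STAR 2.7.2, and deposited raw counts of reads per gene and cell from featureCounts 2.0.0 with default settings, together with an annotation giving genotype, cluster and the total count per cell. Clusters were made with Seurat from the same counts. The deposited mitochondrial percent is 0 in every cell and was recomputed over the 37 mitochondrial genes. The counts of cells picked from salivary glands were not used here.

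Of 17612 gene identifiers 17549 were paired with a name in the files or reference tables and 63 were not. Of 384 circulating wells 3 had no annotation and 1 annotated cell had no genotype. No well was shared by name between the 2 sets (0). Cells were kept if mitochondrial genes took 10% of reads or less and 200 or more genes had a read, and no doublet caller was run, since wells were sorted singly. The level of a gene in a group is the sum of its counts there per 1000000 counts of that group (CPM). Log2 ratios carry exact 95% intervals conditional on the summed counts, and shares carry Clopper-Pearson intervals. These cover counting error or cell sampling only, since amplified reads without identifiers are not independent molecules. A group with 0 reads was set to 3 reads over the group for a bound. As each genotype is 1 pool, no test was run.

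The genes named are Hml, NimC1 and Ppn, the 15 largest and 10 smallest ratios over the other circulating cells that kept their direction with equal weight of cells and within RasV12 cells, the 8 largest and 8 smallest over cluster 2 and between p35;RasV12 and RasV12 cells of cluster 0 that kept their direction with equal weight, up to 3 largest and 3 smallest of each list over the other cells, and the 5 genes most correlated with Hml. Other genes named are said to be chosen after their values were seen. Lists (36 written with the design and 5 added later, 819 members matched and 3 not) were described by counts and medians. The members and lists were chosen with earlier results of these data known. Alternatives were equal weight of cells, other cell filters, thinning to 300000 reads, TMM factors, totals that leave out rRNA and mitochondrial genes, lower limits on genes, a share of at least 5 reads, single genotypes, and leaving out the cell with most reads. Scripts were tested on simulated data. TMM factors came from edgeR 4.0.16 in R 4.3.3, and the rest was computed in Python 3.11.15 (scipy 1.17.1, pandas 2.3.3, numpy 2.4.6) and drawn with matplotlib 3.10.9.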

Additional observations from a re-analysis of the deposited data

How the results depend on the processing

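Most counts did not depend on the processing: 71 of 82 counts and shares stayed within 1.5 times (counts) or within their interval (shares), and 11 moved. With at least 10 CPM and no minimum share of cells, 338 genes were at least 2-fold higher and 285 lower in cluster 0 than in the other circulating cells, 1340 were higher than in cluster 1, 143 higher and 362 lower than in cluster 2, and 235 higher and 112 lower in p35;RasV12 than in RasV12 cells of cluster 0. Among p35;RasV12 and RasV12 cells only, 45 genes were higher than in the other cells, and among p35;RasV12 cells only, 71 were higher than in cluster 2. Without cells of over 1000 CPM of atilla, an alternative chosen after seeing the data, 44 genes were higher in p35;RasV12 cells of cluster 0, and the same genotypes within cluster 2, also chosen after seeing the data, gave 58 lower genes. Of 2357 comparisons of named genes 5 were labelled as reversed, each of a ratio over 2-fold in the main setting: over the other cells within RasV12 cells alphaTub85E (-0.26) and mthl4 (-0.67), over cluster 2 within RasV12 cells alphaTub85E (-1.17), between genotypes without the atilla cells CG15347 (-0.42), and within cluster 2 FBgn0003888 (-1.76). A further 929 moved beyond their counting interval and 1423 did not. A plain change of sign was more frequent than this label. Over the other cells, 196 of 206 named genes kept their sign with TMM scaling and 186 of 205 within RasV12 cells. Among p35;RasV12 and RasV12 cells only, 195 of 206 kept it. The cause of these changes was not tested. With TMM scaling 31.2% of the changed genes over the other cells were higher, against 45.4% as scaled by totals, and over cluster 1 45.5% against 63.3%. No paired analysis was possible because each genotype is 1 pool and the cells carry no replicate numbers. The 8 w1118 cells give wide intervals on shares.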
